A study of Caenorhabditis elegans with 2 samples.

Results

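The 40 genes described here encode the factors that start and extend protein synthesis on ribosomes of the nematode Caenorhabditis elegans. They were chosen by symbol, as all nuclear protein-coding genes of the Ensembl WBcel235 annotation whose name begins with eif-, eef-, ife-, ifg-, iff- or ifet-, and they make up 40 of 19973 such genes. By role, 6 are elongation factor genes (eef-) and 34 are grouped here with initiation. Binding at their promoters was read from ChIP-seq, an assay that pulls down a protein with the chromatin fixed to it and sequences the DNA so recovered. The protein was CEH-27, a homeodomain transcription factor of the NK-2 class, tagged with EGFP. All animals were whole young adults of 73 hours, of strain OP139, synchronized as starved L1 larvae after bleaching and labelled as pooled male and female. This strain carries the transgene wgIs139, a fosmid in which ceh-27 is fused to TY1, EGFP and 3xFLAG, together with unc-119(+), in an unc-119(ed3) background. The 2 biological replicates, 4 and 1, form a single group, and no second condition was measured. The description gives an anti-GFP antibody, although the antibody field names ceh-27. The signal comes from a tagged extra copy in whole animals, so it does not show in which cells a promoter was occupied. The region lists hold no read counts, so library depth is unknown.

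The authors deposited a list of 2328 regions that passed a reproducibility threshold across both replicates (IDR), the 30000 regions of the pooled replicates from which those 2328 are the strongest, and 30000 regions for each replicate. Each region has a summit and a signal, the authors' own value on a scale that is not stated. The signal is used below only to describe and rank regions within a list, with rank 1 the strongest. A promoter was taken as the 1000 bp before and the 200 bp after any 5' end of the gene in the annotation, and a gene is called bound when a reproducible summit lies in it. No summit of any list lay within 1000 bp of the ceh-27 gene, and the best pooled region at unc-119 had rank 10961.

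In initiation, eIF2 brings the initiator tRNA to the small ribosomal subunit, eIF2B recharges eIF2 with GTP, the large complex eIF3 holds the small subunit and the mRNA together, and the cap of the mRNA is bound by eIF4E, which the scaffold eIF4G links to the ribosome. During elongation eEF1A delivers aminoacyl-tRNAs, the eEF1B complex recharges eEF1A, and eEF2 moves the ribosome along. The eIF5A protein was named as an initiation factor but is known to help stalled ribosomes form peptide bonds. The core factors are needed wherever proteins are made, while several have paralogues, some of them known for roles in particular tissues.

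All 6 elongation factor genes (eef-) and 8 of the 34 genes grouped with initiation were bound in the reproducible list. A reproducible promoter summit was found at 14 of the 40 genes (35.0%), against 8.47% of all 19973 protein-coding genes. The bound elongation factor genes were eef-1A.1, eef-1A.2, eef-1B.1, eef-1B.2, eef-1G and eef-2. They were 5 of 6 among the strongest 2328 regions of either replicate and among the strongest 1164 reproducible regions, each time without eef-1B.2, and 5 of 6 with a summit given only to the nearest 5' end, without eef-1A.1. The bound genes grouped with initiation (23.5%) were iff-2, ifet-1, eif-2Bgamma, eif-4A3 and the eIF3 subunit genes eif-3.B, eif-3.C, eif-3.D and eif-3.E. This group takes in all genes without the eef- prefix. It therefore holds iff-2 (eIF5A), the translational repressor gene ifet-1 and eif-4A3, known from the exon junction complex, which are not core initiation factors. Among the strongest 1164 regions of the list 10 of the 40 genes (25%) had a summit, against 4.91% of all genes. The median signal of the strongest promoter peak was 274.5 at the 14 bound genes and 147 at the 1677 other bound genes. Each of the 14 genes had 1 reproducible promoter peak. The split by role was made after seeing the data. No test stands behind these counts, since genes were chosen by name from 1 group of samples and are not replicates of it.

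**Figure D1:**
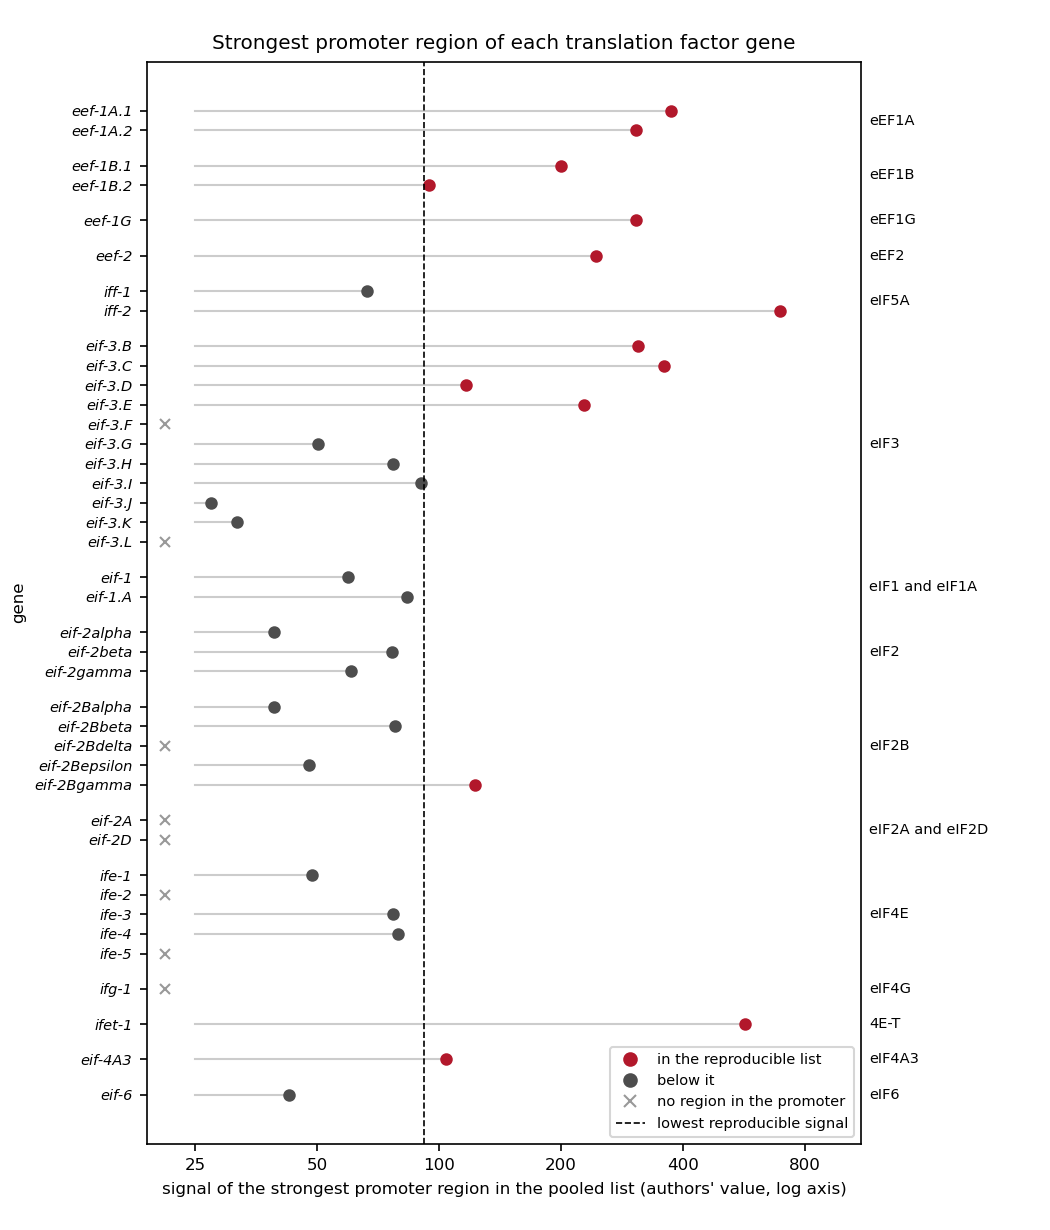
Signal of the strongest promoter region of each of the 40 genes in the pooled list (horizontal log axis, the authors' value), grouped by factor. Red points are in the reproducible list and lie to the right of the dashed line at its lowest signal, 91.7, grey points lie below it, and crosses mark the 8 genes with no pooled region in the promoter.

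The sequences under the summits are shown first for the genes on which the comparison of paralogues turns, and for the bound genes that share a 6-letter word near the summit. They are read 5′ to 3′ on the strand of the gene, from the RefSeq copy of the WBcel235 assembly (build ce11), from 50 bp before to 50 bp after the pooled summit, and the stretch at eef-1G is cut at the last base before its transcript. Capitals mark 2 words on either strand, AAGTG (a known binding core of NK-2 class homeodomain proteins) and TACGCA. The stretches lie at chrII:8561389-8561489 (minus strand) for iff-2, chrIII:9747302-9747402 (minus) for iff-1, chrIII:6972035-6972135 (minus) for eef-1A.1, chrX:7823222-7823322 (plus) for eef-1A.2, chrV:10965652-10965718 (plus) for eef-1G, chrIII:4475613-4475713 (minus) for ifet-1 and chrII:6968350-6968450 (minus) for eif-2Bgamma. The region at iff-1 is a pooled region below the reproducible list, while the other 6 are reproducible.
iff-2: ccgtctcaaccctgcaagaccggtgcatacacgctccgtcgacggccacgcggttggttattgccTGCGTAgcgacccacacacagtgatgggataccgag
iff-1: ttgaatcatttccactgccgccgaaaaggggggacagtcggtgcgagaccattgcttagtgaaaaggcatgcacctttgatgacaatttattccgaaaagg
eef-1A.1: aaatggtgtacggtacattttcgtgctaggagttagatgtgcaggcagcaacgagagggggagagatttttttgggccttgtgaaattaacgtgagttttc
eef-1A.2: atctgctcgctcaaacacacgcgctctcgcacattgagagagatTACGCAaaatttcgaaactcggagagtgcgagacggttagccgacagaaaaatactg
eef-1G: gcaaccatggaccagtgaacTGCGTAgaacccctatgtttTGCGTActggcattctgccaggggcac
ifet-1: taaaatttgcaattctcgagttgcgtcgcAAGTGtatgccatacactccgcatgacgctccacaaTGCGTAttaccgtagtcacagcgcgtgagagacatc
eif-2Bgamma: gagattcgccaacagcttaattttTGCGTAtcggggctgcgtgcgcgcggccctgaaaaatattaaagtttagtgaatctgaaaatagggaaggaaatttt

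The eIF5A genes differed widely, with iff-2 bound at a high rank and iff-1 not bound. At iff-2, on chromosome II, the signal was 693.7 in the pooled list (rank 7), 496.9 in replicate 4 (rank 4) and 200.1 in replicate 1 (rank 21). At iff-1, on chromosome III, the strongest pooled promoter region had a signal of 66.5 (rank 4357). Replicate 4 had 55.2 there (rank 2939), and replicate 1 had 17.1 (rank 19180). Replicate 1 had a stronger region elsewhere in iff-1 (35.5, rank 2760), 123 bp downstream of a 5' end inside the longest transcript. In each of the 3 lists iff-2 stood among the strongest 21 regions, and no iff-1 region was among the strongest 2328. The iff-2 summit lay in intergenic sequence 72 bp upstream of its 5' end, the nearest of any gene to it. The pooled summit of iff-1 lay 159 bp upstream. The proteins are 161 residues each, in the isoforms most alike, and share 135 of them (83.9%). Their upstream 1000 bp have no run of more than 12 bp in common. The pairs of eIF4E genes had 10 to 14 bp, and runs between unrelated genes were not measured. The iff-2 stretch above is 61.4% G and C and holds 1 TACGCA, and the iff-1 stretch is 47.5% G and C and holds neither marked word. In worms IFF-1 is known for its role in the germ line and IFF-2 for one in the soma.

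The eEF1A genes, by contrast, were both bound at high rank. The annotated coding sequences of eef-1A.1 (chromosome III) and eef-1A.2 (chromosome X) give the same protein of 463 residues. The longest run that their upstream 1000 bp share is 12 bp, as at the eIF5A pair and within the range of the eIF4E pairs. At eef-1A.1 the signal was 372.6 in the pooled list (rank 87), 213.4 in replicate 4 (rank 135) and 155.9 in replicate 1 (rank 59). At eef-1A.2 it was 305.3 in the pooled list (rank 174), 211.9 in replicate 4 (rank 137) and 90.2 in replicate 1 (rank 321). The signals were nearly equal in replicate 4 and further apart in replicate 1, where eef-1A.1 was the stronger. Their summits lay at like distances, 373 bp upstream at eef-1A.1 and 382 bp upstream at eef-1A.2. The eef-1A.1 summit was nearer to rfc-4, which encodes a subunit of the replication clamp loader and starts on the opposite strand 168 bp away, whereas eef-1A.2 was the only protein-coding gene whose promoter held its summit. The microRNA gene cel-mir-5549 also lay within 200 bp of the eef-1A.1 summit. TACGCA occurs in the eef-1A.2 stretch and not in that of eef-1A.1, and AAGTG occurs in neither.

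The genes of the eEF1B exchange complex, which reloads eEF1A with GTP, spread widely in rank. The peak at eef-1G, the gamma subunit gene on chromosome V, had a signal of 306.5 (rank 170), with 176.4 in replicate 4 (rank 255) and 126.0 in replicate 1 (rank 115). At eef-1B.1, on chromosome III (chrIII:7973328-7973454), it was 200.3 (rank 539), with 126.0 in replicate 4 (rank 577) and 71.8 in replicate 1 (rank 567). At eef-1B.2, on chromosome IV (chrIV:15036996-15037339), it was 94.4 (rank 2210), with 48.2 in replicate 4 (rank 4031) and 35.5 in replicate 1 (rank 2774). The eef-1B.2 peak was therefore close to the lower edge of the reproducible list, and in neither replicate was it among the 2328 strongest. The summit was 17 bp upstream at eef-1G, 1 bp downstream at eef-1B.1, in its 5' untranslated sequence, and 163 bp upstream at eef-1B.2. The proteins of eef-1B.1 (213 residues) and eef-1B.2 (263 residues) have 146 residues in common, 94 of them in 1 run. The eef-1B.1 peak was thus the stronger of this pair in all 3 lists.

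For eef-2 the sole gene of the translocase was bound just at its start. The peak (chrI:9163434-9163598) had a signal of 243.7 (rank 322), with 143.5 in replicate 4 (rank 437) and 96.2 in replicate 1 (rank 260). Its summit lay 2 bp upstream of the 5' end of eef-2 and 263 bp upstream of clsp-1, which runs the other way.

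Of the 11 eIF3 subunit genes 4 were bound (36.4%), against 8.47% of all genes. Among the strongest 1164 regions there were 3 of 11 (27.3%), against 4.91% of all genes. At eif-3.C (chrI:9979802-9980006) the signal was 358.0 (rank 105), with 198.8 in replicate 4 (rank 176) and 154.3 in replicate 1 (rank 61). At eif-3.B (chrII:14795085-14795271) it was 309.1 (rank 165), with 173.3 in replicate 4 (rank 265) and 133.5 in replicate 1 (rank 99). At eif-3.E (chrI:10642393-10642547) it was 228.1 (rank 384), with 137.4 in replicate 4 (rank 479) and 88.5 in replicate 1 (rank 336). All 3 ranked higher in replicate 1 than in replicate 4, and all 3 summits were intergenic and 207 to 245 bp upstream. The peak of eif-3.D (chrIII:8971672-8972015) was much weaker, with a signal of 116.6 (rank 1520), 70.5 in replicate 4 (rank 1764) and 45.2 in replicate 1 (rank 1593), and its summit was 266 bp upstream of eif-3.D but 48 bp upstream of R08D7.4. Just below the reproducible list stood eif-3.I (pooled signal 90.4, rank 2401), where the replicates had their strongest regions at different places of the promoter, and eif-3.H (77.1, rank 3218). Further down came eif-3.G (50.2, rank 8340), eif-3.K (31.7, rank 21866) and eif-3.J (27.4, rank 27473), and eif-3.F and eif-3.L had no pooled region in the promoter. The subunits of this single complex thus ran from rank 105 to no region at all. The gene of its largest subunit, egl-45, which carries another kind of name and is named here after its value was seen, had a best pooled region of rank 10291.

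In the cap-binding group a reproducible summit lay in the promoter of ifet-1. The ifet-1 gene encodes a partner of eIF4E that represses translation in germ cells, and its peak had a signal of 570.0 (rank 20), with 368.3 in replicate 4 (rank 18) and 199.8 in replicate 1 (rank 22). The summit, however, lay 513 bp upstream of ifet-1 and 255 bp upstream of rps-1, a small-subunit ribosomal protein gene on the opposite strand, so the peak lay in the promoters of both. The ifet-1 call was lost with 500 bp upstream in place of 1000 bp, and with a summit given only to the nearest 5' end. Of the 5 eIF4E genes 0 were bound, and with 8.47% of all genes bound so small a family gives no sign of a difference. The strongest pooled promoter regions were at ife-4 (signal 79.3, rank 3059), ife-3 (76.9, rank 3235) and ife-1 (48.6, rank 9017), and ife-2 and ife-5 had none. The replicates differed on which was highest, since ife-4 ranked 2135 in replicate 4 and 19953 in replicate 1, whereas ife-3 ranked 10709 in replicate 4 and 1721 in replicate 1. At ife-2 only replicate 1 held a promoter region (rank 2737). The closest pair, ife-1 and ife-5, share 158 residues (78.6% of the shorter protein), and IFE-1 is known from sperm and the germ line. The eIF4G gene ifg-1 had no pooled region in its promoter and in replicate 1 a region of rank 2435. A reproducible summit lay 455 bp beyond the 3' end of ifg-1, outside the promoter.

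The families of eIF2 (0 of 3 bound) and eIF2B (1 of 5) were too small to be told from the 8.47% of all genes. The bound eIF2B gene was eif-2Bgamma (chrII:6968228-6968571), with a signal of 122.6 (rank 1389), 70.4 in replicate 4 (rank 1776) and 60.3 in replicate 1 (rank 852). That summit was the farthest of the 14 from the 5' end, 752 bp upstream, in an intron of the neighbour C15F1.5 and at sup-39 and mir-1831, which the annotation lists as snRNA genes. To which of these genes the signal belongs was not tested, and the call was lost with 500 bp upstream. The other eIF2B genes had a best pooled signal of 77.8 at eif-2Bbeta (rank 3160), 47.7 at eif-2Bepsilon (rank 9376) and 39.0 at eif-2Balpha (rank 14778), and none at eif-2Bdelta. The eIF2 genes had 76.4 at eif-2beta (rank 3290), 60.5 at eif-2gamma (rank 5330) and 39.1 at eif-2alpha (rank 14655). The scanning factor genes eif-1.A (83.1, rank 2807) and eif-1 (59.5, rank 5557) and the subunit-joining regulator eif-6 (42.5, rank 12260) stood below the list as well, and eif-2A and eif-2D had no pooled region. The last bound gene, eif-4A3, encodes a helicase known from the exon junction complex on spliced mRNAs. Its peak (chrI:636662-637005) had a signal of 103.8 (rank 1891), with 67.7 in replicate 4 (rank 1907) and 34.4 in replicate 1 (rank 2985), and its summit lay 489 bp upstream of eif-4A3 but 30 bp inside the oppositely oriented vps-20, in 5' untranslated sequence.

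**Figure D2:**
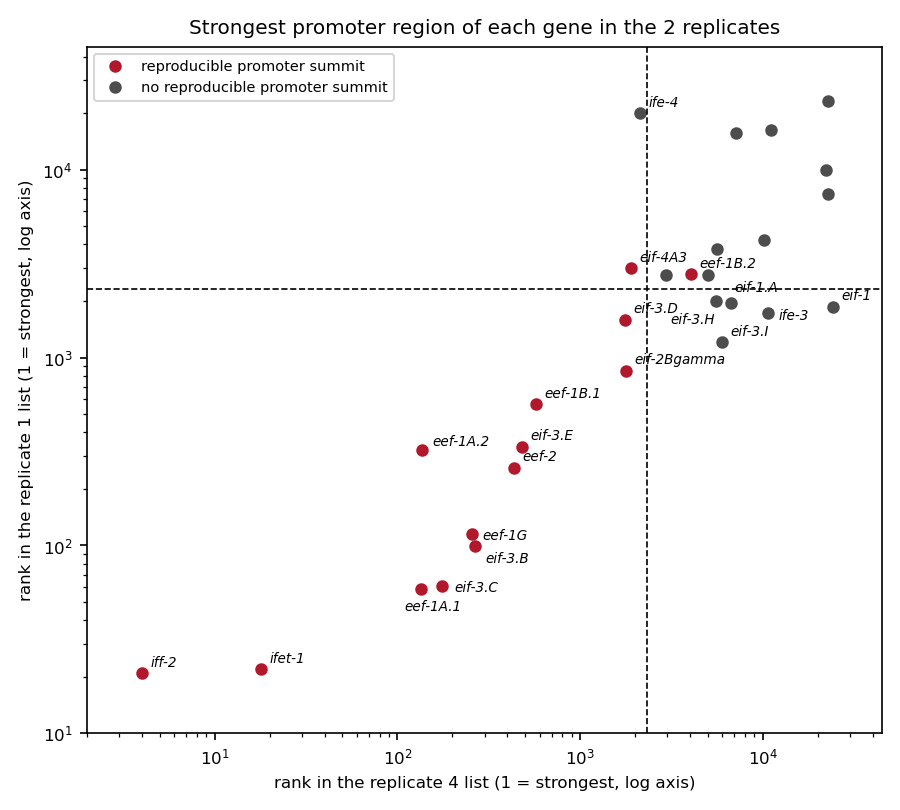
Rank of the strongest promoter region of each gene in replicate 4 (horizontal) and replicate 1 (vertical), both log axes, for genes with a region in both lists, with dashed lines at rank 2328. Points run along the diagonal from iff-2 and ifet-1 down to eef-1B.1, and the grey points scatter, with ife-4 high in rank in replicate 4 alone and eif-1, eif-1.A, eif-3.H, eif-3.I and ife-3 in replicate 1 alone.

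The replicates gave like pictures of the strong peaks and differed at the weak ones. Among the 2328 strongest regions of replicate 4, 14 of the 40 genes had a promoter summit (35.0%), against 8.08% of all genes. In replicate 1 it was 18 of 40 (45%), against 8.47% of all genes. In both replicates, 12 of the 14 reproducible peaks were matched, to within 100 bp, by a region of the strongest 2328. Since the reproducible list was itself chosen by agreement between these replicates, such matches are a description and no separate support. The exceptions were eif-4A3, missing in replicate 1, and eef-1B.2, missing in both. Summits in replicate 4 lay at most 20 bp and those in replicate 1 at most 48 bp from the pooled summit. Replicate 1 alone added 6 genes, eif-1, eif-1.A, eif-3.G, eif-3.H, eif-3.I and ife-3, and replicate 4 alone added ife-4. The share of all genes found in a single replicate was not computed, so this difference cannot be called particular to these genes. The eif-1 gene, for example, had rank 1868 in replicate 1 and 24170 in replicate 4.

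**Figure D3:**
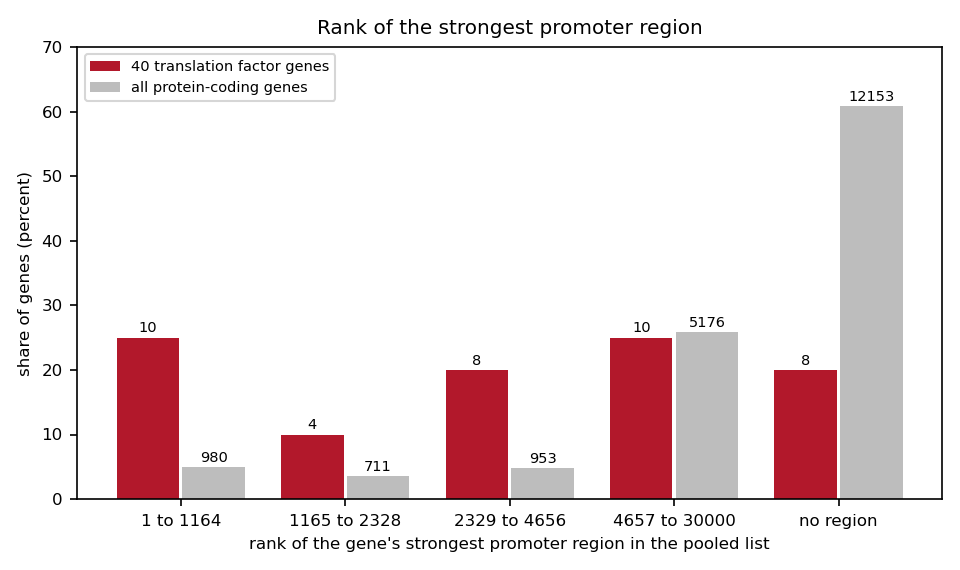
Share of genes (percent) by the rank of their strongest promoter region in the pooled list, with translation factor genes in red and all protein-coding genes in grey, and the number of genes above each bar. The red bar is 25% against 4.91% in the strongest 1164 regions, and 20.0% against 60.8% where the promoter held no region.

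Just below the reproducible list, translation factor genes still had regions more often than genes at large. In the whole pooled list of 30000 regions, which includes background by its authors' description, 32 of the 40 genes (80.0%) had a promoter summit, against 39.2% of all genes. In the next 2328 ranks, 2329 to 4656, lay the best region of 8 of the 40 genes (20.0%), against 4.77% of all genes. These 8 were eif-3.I, eif-1.A, ife-4, eif-2Bbeta, eif-3.H, ife-3, eif-2beta and iff-1. From rank 4657 to 30000 the shares were 25% of the 40 genes and 25.9% of all genes. Each gene was counted once, at its strongest region, so genes placed in higher ranks are missing from this lowest range. A larger share of the 40 genes than of all genes was placed higher. The like shares from rank 4657 on therefore do not show that the difference ended there. No region was found at 20.0% of the 40 genes and at 60.8% of all genes.

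**Figure D4:**
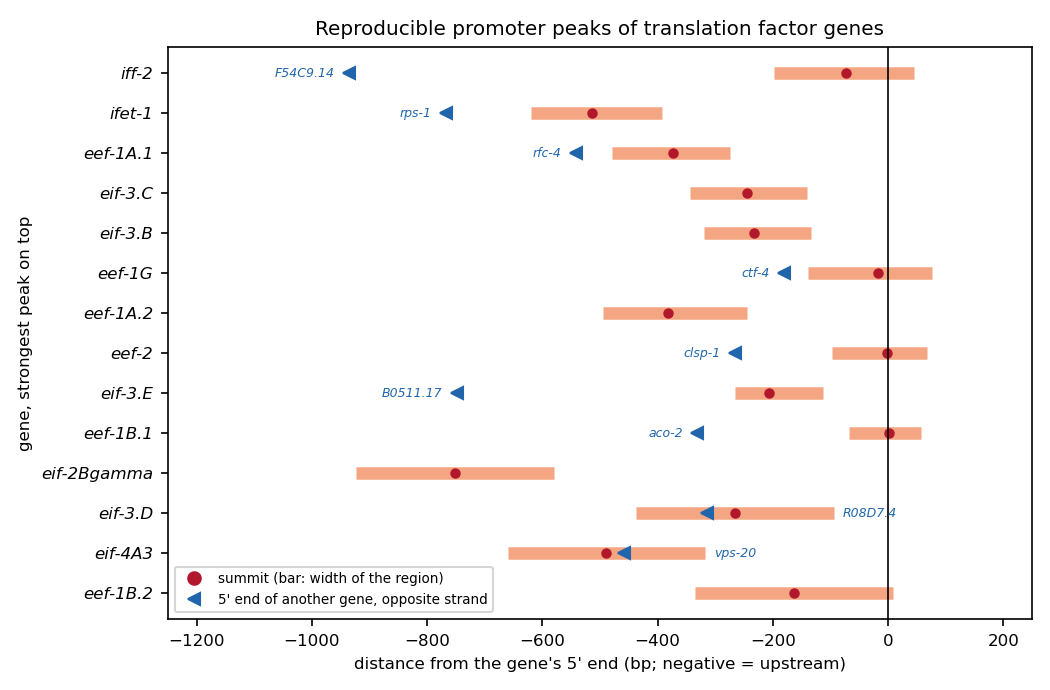
Position of the 14 reproducible promoter peaks relative to the nearest 5' end of the gene (bp, negative is upstream), with red points for summits, bars for the deposited regions, and blue triangles for the 5' end of the other gene whose promoter holds the summit. Summits run from 752 bp upstream at eif-2Bgamma to 1 bp downstream at eef-1B.1, and 9 peaks have a triangle.

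Most of these peaks were shared with a gene on the opposite strand. The summit was in the promoter of another gene as well at 9 of the 14 peaks (64.3%), against 30.5% of the 1303 other reproducible promoter peaks, and at all 9 the other gene had the opposite orientation. These shares are not on like terms. The 14 peaks were reached through a list of genes, and a peak in several promoters is more readily reached that way. The share per bound gene was not computed. At 4 of the 9 the other gene's 5' end was the nearer, namely rps-1 at ifet-1, rfc-4 at eef-1A.1, R08D7.4 at eif-3.D and vps-20 at eif-4A3. At the other 5 the translation factor gene was nearer, against F54C9.14 at iff-2, ctf-4 at eef-1G, clsp-1 at eef-2, B0511.17 at eif-3.E and aco-2, the mitochondrial aconitase gene, at eef-1B.1. The peaks of eif-3.C, eif-3.B, eef-1A.2, eif-2Bgamma and eef-1B.2 fell in 1 protein-coding promoter each. With each summit given only to the nearest 5' end, 10 of the 40 genes were bound, without ifet-1, eef-1A.1, eif-3.D and eif-4A3, and 6.29% of all genes. The median distance was 239 bp upstream at the 14 genes and 252 bp at the other bound genes. The summit was upstream of the 5' end at 13 of 14 genes (92.9%) and at 94.9% of the other bound genes, a share that the window, which lies mostly upstream, favours. No gene of the 40 had a reproducible summit inside its body outside the promoter.

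In base composition these peaks were like other promoter peaks. The 101 bp at the summit had a median of 48.5% G and C at the 14 peaks (lowest 42.6%, highest 61.4%, at iff-2) and 49.5% at the 1303 others. In windows 300 bp away at lower coordinates the medians were 35.1% at the 14 peaks and 34.7% at the others. The regions were narrower, with a median width of 222 bp at the 14 peaks and 344 bp at the others, and the 4 weakest of the 14, eif-2Bgamma, eif-3.D, eif-4A3 and eef-1B.2, all had 344 bp. Widths were not compared at like signal, and the median signal was higher at the 14 genes than at other bound genes.

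Short words were counted on both strands of the 101 bp at each summit. AAGTG occurred at 4 of the 14 peaks (28.6%), those of ifet-1, eif-3.C, eef-2 and eif-3.D, and in 4 of 14 windows 300 bp away. Of the 1303 other promoter peaks 28.2% held it at the summit and 21% in the window 300 bp away, and of equal windows centred 200 bp upstream of all 19973 genes 21.1% held it. The longer TNAAGTG, which contains AAGTG, occurred at eif-3.D alone (7.14% against 5.99% of the other promoter peaks, and 4.73% of the windows upstream of all genes). Neither word set the 14 peaks apart from the other promoter peaks in these counts.

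The 6-letter words that separated summit from flank most at the 1303 other promoter peaks were then counted at the 14. GAGAGA stood at 3 of 14 (21.4%) and at 25.2% of the others, and the overlapping AGAGAG at 1 of 14 (7.14%) and at 21.9% of the others. GACGCA stood at 2 of 14 (14.3%) and 18.0% of the others, CGTCTC at 2 of 14 (14.3%) and 18.4% of the others, and ACGCAG at 3 of 14 (21.4%) and 17.7% of the others. Upstream of all genes the shares of these 5 words were 7.47%, 6.06%, 3.15%, 3.57% and 2.92% in the same order. TACGCA, named after the sequences of the 14 peaks were seen, stood at 5 of 14 peaks (35.7%), those of iff-2, ifet-1, eef-1G, eef-1A.2 and eif-2Bgamma, in none of their 14 windows 300 bp away, at 7.14% of the other promoter peaks and at 2.35% of windows upstream of all genes. It overlaps ACGCAG by 5 letters, and the stretch of eef-1G printed above holds it at 2 places, on the strand opposite to the gene. Because it was picked from these sequences, its share is a description and carries no test. None of these words was found at eif-3.B, eif-3.E, eef-1B.1, eif-4A3 or eef-1B.2, which says only that these letters are not in those windows.

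Other genes of the pathway, listed by name, were bound less evenly. Of 67 symbols 62 matched the annotation, and 12 of the 62 (19.4%) were bound, against 8.47% of all genes. Among factors with other kinds of names 4 of 8 were bound. These were drr-2, an eIF4H-like gene (signal 506.9, rank 33, 181 bp upstream), clu-1 (232.9, rank 364), and the poly(A)-binding protein genes pab-2 (142.2, rank 1051) and pab-1 (106.2, rank 1824), and pab-1 shares its peak with the ribosomal protein gene rpl-30. The gene of the helicase eIF4A, inf-1, is named here after its value was seen and was unbound, with a best pooled rank of 27056. Of 11 kinases and other regulators, larp-1, which encodes an RNA-binding protein (539.6, rank 25), and abcf-2 (265.8, rank 262) were bound, with summits 658 and 888 bp upstream and in the promoters of other genes too. Of 7 termination and rescue genes 1 was bound, the release factor gene erfa-1 (152.8, rank 916). Of 4 mitochondrial elongation factor genes tufm-2 (140.1, rank 1077) and gfm-1 (135.2, rank 1155) were bound. The 32 aminoacyl-tRNA synthetase genes had 3 bound (9.38%), close to the share of all genes, namely ears-2 (304.2, rank 177), kars-1 (167.4, rank 775) and mars-1 (95.9, rank 2153). Of the 12 bound pathway genes, pab-2 and kars-1 had a summit that lay in no other gene's promoter. The share of all bound genes with such a summit was not computed. Per peak, 30.8% of all 1317 reproducible promoter peaks lay in the promoters of several genes. That share is not on like terms, since a list of genes more readily reaches a peak in several promoters.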

How the data were processed

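ChIP-seq regions of 2 biological replicates (numbered 1 and 4) of 1 group were used. Per the labels and the text files of the samples, the authors deposited regions on build ce11 for each replicate, for both pooled, and for the IDR set, made against a control that was not analysed here. The deposited signal of a region has no stated scale, and the deposited −log10 q values, of which most in the IDR set equal the highest one, were not used. Start, end and summit offset are other values, deposited as whole numbers. No aligner or region caller is given in the sources used here. Depth is unknown, so no interval is given.

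Coordinates are counted from 1, and all fell within the WBcel235 chromosomes (the same assembly). Genes are from Ensembl release 115, with every annotated transcript of a protein-coding gene giving a 5' end. Protein identity came from translated coding sequence aligned with BLOSUM62, taking the isoforms most alike. The 5 words of 6 letters had the largest difference between summit and window 300 bp away among promoter peaks without the 40 genes. The genes, lists and words were chosen with earlier results of these data known. By rule all 40 genes are named, with full values for bound genes and the best pooled region for the others, while pathway genes outside the 40 are named where bound. Replicate values are those of the strongest promoter region in that replicate's list, which for bound genes is the region at the pooled summit. No test was run. Promoter assignment was tested on simulated data. Alternatives changed the window, the 5' ends, the assignment, the list, the replicate and the motif. Tools were Python 3.11.15, numpy 2.4.6, pandas 2.3.3, Biopython 1.88 and matplotlib 3.10.9.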

Additional observations from a re-analysis of the deposited data

How the results depend on the processing

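Of the 40 genes 14 were bound, against 8.47% of all genes. The count was 12 with 500 bp upstream (6.64% of all genes), without ifet-1 and eif-2Bgamma, and 17 with 2000 bp (11.2%). It was 14 with the outermost 5' end (7.72%), 10 with the nearest 5' end only (6.29%), 15 with any overlap (9.11%), 10 among the strongest 1164 regions (4.91%) and 32 in the full pooled list (39.2%). It was 14 without replicate 1 (8.08%) and 18 without replicate 4 (8.47%). The elongation factor genes gave 5 or 6 of 6 in every setting tried (5 without replicate 1 and 5 without replicate 4). Beside these same shares of all genes, the 8 bound genes grouped with initiation became 5 with the nearest 5' end only, 5 among the strongest 1164 regions, 26 in the full pooled list, 9 without replicate 1 and 13 without replicate 4. Splitting the genes by role was chosen after seeing the data. The median signal of 274.5 was 158.4 without replicate 1 and 93.2 without replicate 4, where the lists have scales of their own. AAGTG stood at 21.4% of peaks within 25 bp, 42.9% within 100 bp and 28.6% without replicate 1 or replicate 4, and TNAAGTG at 7.14%. A wider window holds any word more often, and no share of other peaks was taken at 25 or 100 bp. The median distance was 238 bp without replicate 1 and 228.5 bp without replicate 4. Under the 500 bp, 2000 bp and outermost settings the signals of the 14 genes gave 40 values, with none for ifet-1 and eif-2Bgamma at 500 bp, and 39 were equal, while eif-3.D moved to 142.3 with 2000 bp. No paired analysis was possible because there is 1 group. With no counts in the lists, a gene without a region may lack depth or binding, and these cannot be told apart.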
